A study of Mus musculus with 6 samples.

Results

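The collagen chain genes were taken by name: every gene whose symbol on the array is Col, a number, a and a number, with nothing after it. The rule gave 37 genes with 59 probes, out of 16593 named genes on the array. Of these, 11 encode fibrillar chains, 6 the type IV chains of basement membranes, 3 type VI chains and 17 other chains. RefSeq lists 44 mouse genes of this form, and 7 of them, Col6a3, Col6a4, Col6a5, Col8a1, Col12a1, Col20a1 and Col22a1, have no probe named here and were not analysed. The rule reads names alone, although the group was proposed with earlier results of these data known.

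The tissue was ankle synovium of male DBA/1 mice with collagen-induced arthritis, an inflammatory joint disease that follows immunization with foreign cartilage collagen and serves as a model of rheumatoid arthritis. All 6 arrays came from immunized mice, which were 6 to 8 weeks old at the start. They received 100 µg of bovine type II collagen with complete Freund's adjuvant. A booster in incomplete Freund's adjuvant, at a dose not reported here, went into a hind footpad at week 2. The groups were taken at week 6 (induction), week 9 (peak) and week 15 (resolution) after immunization, with 2 arrays of pooled, skin-free tissue each, and the boosted foot was excluded. No untreated mice were analysed here, so every comparison below is between times within the disease. Whether the arrays of a week come from separate pools of mice is not stated in the labels, so p-values reflect the spread among the 6 arrays alone and that spread may be technical.

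A collagen molecule is a triple helix of chains that fibroblasts and other stromal cells make, modify, fold, export and trim. Fibrillar collagens, type I above all, form the tension-bearing fibres of connective tissue, type IV forms the sheet under endothelium and around muscle, fat and nerve cells, and type VI forms fine beaded filaments around cells. In a healthy joint the types II, IX, X and XI belong mainly to cartilage, while synovium holds types I, III, V and VI.

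No collagen chain gene passed the adjusted threshold of 0.05 in any comparison between weeks, where 0.0492% to 1.19% of all features tested did. The chains of types IV and VI that were above background, Col4a1, Col4a2, Col6a1 and Col6a2, had higher signals on both week 6 arrays than on all 4 later arrays. So did Col5a1, Col15a1 and Col16a1, which made 7 of 19 tested chain genes, against 10.0% of all features. The fitted difference closest to the threshold was that of Col6a1 between week 15 and week 6, a log2 difference of -1.59 ± 0.24 (SE, limma with Benjamini-Hochberg adjustment over all features, adjusted p = 0.0809). The arrays of week 6 overlapped with those of a later week for the fibrillar chains Col1a1, Col1a2 and Col3a1, and the cartilage chains were at or near background on every array.

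A probe counted as above background on an array when under 5% of the background rows were as bright there, and a gene was tested when a probe of it was above background on at least 2 of the 6 arrays. By this rule 19 chain genes were tested, 9 were above background on all 6 arrays, and 15 had no probe above background on any. By class, 8 of 11 fibrillar chains, 2 of 6 type IV chains, 2 of 3 type VI chains and 7 of 17 other chains were tested. Of the 59 probes, 32 were above background on no array. Col27a1, a fibrillar chain, was above background on the first week 6 array only, and Col28a1, a relative of the type VI chains, on the second week 15 array only. The map of detection by gene and array shows these patterns.

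**Figure D1:**
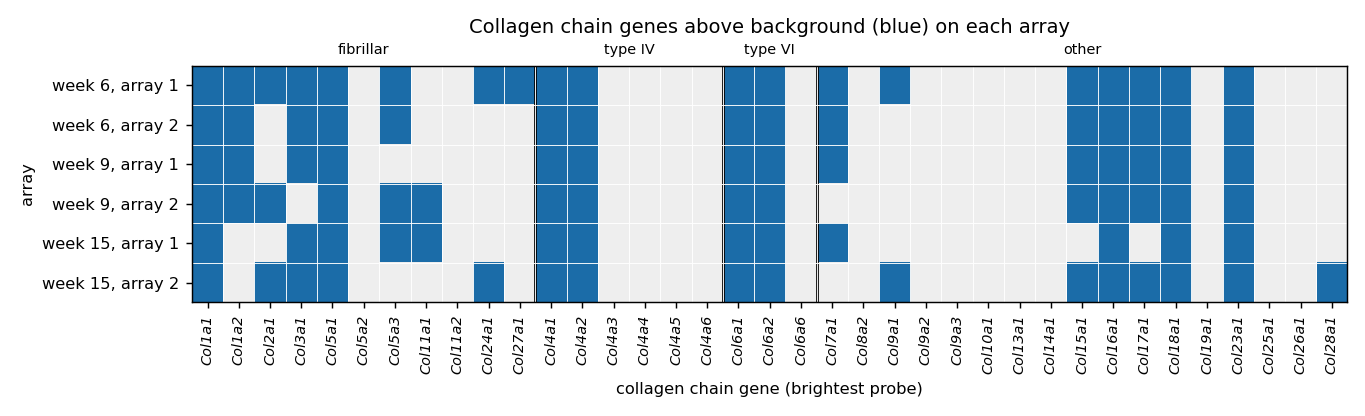
Each column is 1 of the 37 collagen chain genes (its brightest probe), each row 1 of the 6 arrays, and a blue cell marks a signal above background. A reader should see that 9 genes are blue in every row, 16 in none (Col25a1 among them, which had a dimmer probe above background on 1 array), and that the type IV group is blue for Col4a1 and Col4a2 alone.

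Among the genes with no probe above background were Col5a2, the partner chain of Col5a1 in type V collagen, Col14a1, a fibril-associated chain, and Col6a6, a longer type VI chain. The type IV chains Col4a3, Col4a4, Col4a5 and Col4a6, which form the networks of kidney and other specialized basement membranes, were also above background on no array. The rest of this group were Col8a2, Col9a2, Col9a3, Col10a1, Col11a2, Col13a1, Col19a1 and Col26a1. The brightest probe of Col25a1 was likewise above background on no array, but another of its 5 probes was on the second week 6 array. Over the brightest probes of these 16 genes and the 6 arrays, the normalized log2 signals lay between 4.25 and 5.05, and these values are bounds on a dim probe and not levels of RNA. A chain with a silent probe may still be transcribed, since signal also depends on how well each probe binds: Col6a1 had 1 probe above background on no array beside 2 that were above it on all 6.

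Several chain genes lie beside each other in the genome, and the pairs Col4a1 and Col4a2, Col6a2 and Col6a1, and Col3a1 and Col5a2 have no protein-coding gene between them in RefSeq. RefSeq promoter windows of GRCm38.p6, from 250 bases before to 50 bases after a start, were listed for 30 of the 37 genes, in 33 windows. Col4a1, on the minus strand, and Col4a2, on the plus strand, have annotated starts 21 bases apart and are transcribed in opposite directions. Their windows share 78 bases at chr8:11312777-11312854, and only this shared stretch of the 2 windows is shown. The windows of Col6a1 (chr10:76725995-76726294, minus strand), of Col6a2 (the more downstream of its 2, chr10:76623355-76623654, minus strand) and of Col1a2 (chr6:4505368-4505667, plus strand) are shown for the type VI chains and for a chain of type I. Capitals mark 2 motifs on either strand. One is the GC box, with the letters GGGCGG, which reads CCGCCC on the opposite strand. The other is the box named for its letters CCAAT, and its opposite strand reads ATTGG where it occurs. The shared Col4a1 and Col4a2 stretch is written on the plus strand and the others on the strand of their gene, all 5′ to 3′.
Col4a1 and Col4a2, shared stretch: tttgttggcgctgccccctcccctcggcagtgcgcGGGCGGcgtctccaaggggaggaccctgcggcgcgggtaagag
Col6a1: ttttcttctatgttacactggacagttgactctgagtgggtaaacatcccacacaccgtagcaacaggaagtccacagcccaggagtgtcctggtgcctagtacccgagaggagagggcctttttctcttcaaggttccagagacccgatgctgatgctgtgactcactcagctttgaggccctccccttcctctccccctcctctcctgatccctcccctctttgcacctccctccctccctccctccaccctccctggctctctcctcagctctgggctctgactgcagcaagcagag
Col6a2: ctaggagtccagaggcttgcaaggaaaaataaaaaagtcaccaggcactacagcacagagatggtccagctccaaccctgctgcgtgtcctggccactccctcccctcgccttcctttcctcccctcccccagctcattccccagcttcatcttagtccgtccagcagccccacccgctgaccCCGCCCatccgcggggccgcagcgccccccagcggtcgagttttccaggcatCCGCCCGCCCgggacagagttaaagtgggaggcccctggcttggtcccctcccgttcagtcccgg
Col1a2: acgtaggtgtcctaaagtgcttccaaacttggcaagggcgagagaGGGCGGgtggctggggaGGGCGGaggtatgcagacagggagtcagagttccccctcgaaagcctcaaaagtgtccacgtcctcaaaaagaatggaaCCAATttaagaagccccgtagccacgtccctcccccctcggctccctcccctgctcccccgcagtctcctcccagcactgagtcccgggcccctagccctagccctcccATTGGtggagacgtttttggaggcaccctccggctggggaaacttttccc

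A GC box was found in 20 of the 33 collagen windows, against 35.7% of all 32851 windows listed for the mouse, and a CCAAT box in 12, against 37.4%. TATAAA, the TATA box, also searched on both strands, was in 5 windows, against 13.6%. No motif contains another, but copies can share letters, as GC boxes do in the Col6a2 window. Col1a2 held both a GC box and a CCAAT box, Col6a2 held GC boxes, and the Col6a1 window held none of the 3. The full windows of Col4a1 and Col4a2 held 1 and 3 GC boxes and 1 CCAAT box each. Of these, only 1 GC box lies in the shared stretch shown. A match of letters is a description of the window and not a binding site, and no match says only that these letters are absent from it.

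Both tested type VI chains had their highest signals at week 6. Col6a1, a short chain that every type VI molecule contains, had raw intensities of 1112 and 751 at week 6, 428 and 556 at week 9, and 365 and 242 at week 15. After background correction and normalization these were log2 signals of 9.88 and 9.42, 8.20 and 8.67, and 8.15 and 7.96. Both week 6 arrays were above all later arrays, and both week 15 arrays were below both week 9 arrays. The log2 difference of week 9 from week 6 was -1.21 ± 0.24 (SE, limma adjusted p = 0.102), and that of week 15 from week 9 was -0.38 (limma adjusted p = 0.361), or -0.14 without the second week 9 array. The unadjusted p of week 15 against week 6 was 0.000276, and the F test over the 3 weeks gave a limma adjusted p of 0.0623, the lowest of the chain genes. A further Col6a1 probe gave log2 signals of 8.87 and 8.69 at week 6, 7.30 and 7.70 at week 9, and 7.62 and 6.87 at week 15, with a log2 difference of -1.28 between week 9 and week 6. On that probe too, both week 6 arrays were above all the later ones, while the first week 15 array lay between the week 9 arrays.

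Whether Col6a1 crossed the threshold between week 15 and week 6 depended on settings. Its adjusted p was 0.038 with no background correction, 0.0324 with an offset of 50 in place of 16, and 0.034 without the first week 15 array, against a range from 0.0324 to 0.57 over all alternatives. Its log2 difference was negative under each alternative, between -1.82 and -1.18.

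Col6a2, the other short chain of the same molecule, had log2 signals of 6.49 and 6.66 at week 6, 5.68 and 6.08 at week 9, and 5.61 and 5.84 at week 15. The week 6 arrays were again the highest, while the week 9 and week 15 arrays overlapped. The log2 difference of week 9 from week 6 was -0.70 ± 0.20 (SE, limma adjusted p = 0.200), and that of week 15 from week 6 was -0.85 ± 0.20 (SE, limma adjusted p = 0.194).

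The type IV chains were Col4a1 and Col4a2, which together form the most widespread basement membrane collagen. Col4a1 had log2 signals of 9.40 and 8.56 at week 6, 7.43 and 7.95 at week 9, and 8.15 and 7.06 at week 15. Col4a2 had 8.39 and 7.62 at week 6, 7.23 and 7.33 at week 9, and 6.94 and 6.15 at week 15. For both genes the week 6 arrays were the highest, and the first array of week 6 was well above the second. The week 15 arrays enclosed both week 9 arrays for Col4a1, whereas both lay below them for Col4a2.

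The log2 difference of week 9 from week 6 was -1.29 ± 0.42 (SE, limma adjusted p = 0.227) for Col4a1 and -0.73 ± 0.33 (SE, limma adjusted p = 0.34) for Col4a2. From week 9 to week 15 it was -0.09 for Col4a1 and -0.73 for Col4a2 (limma adjusted p = 0.912 and 0.235), and whether the pair of genes differed in this was not tested. For week 15 against week 6 it was -1.38 ± 0.42 for Col4a1 and -1.47 ± 0.33 for Col4a2 (SE, limma adjusted p = 0.241 and 0.177). Single arrays moved several of these values: without the first week 6 array Col4a2 was at -0.35 between week 9 and week 6. Without the second week 15 array, Col4a2 was at -0.34 between week 15 and week 9, and Col4a1 at -0.84 between week 15 and week 6.

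The fibrillar chains of skin, tendon and bone matrix did not share 1 course over the weeks. Col1a1, the main chain of type I collagen, had log2 signals of 6.95 and 5.85 at week 6, 5.84 and 6.01 at week 9, and 5.33 and 5.27 at week 15. The first week 6 array stood alone at the top, the second lay among the week 9 arrays, and both week 15 arrays were the lowest. The log2 difference of week 9 from week 6 was -0.47 (limma adjusted p = 0.517) and turned to 0.07 without the first week 6 array. At week 15 it was -1.10 ± 0.33 (SE, relative to week 6, limma adjusted p = 0.241), and -0.55 without the first week 6 array.

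Col1a2, which supplies the other chain of type I collagen, had log2 signals of 5.53 and 5.61 at week 6, 5.54 and 5.36 at week 9, and 5.06 and 4.67 at week 15. The week 6 and week 9 arrays overlapped, and neither week 15 array was above background. Its signal was therefore at least 1.44-fold lower at week 15 than at week 6 and at least 1.33-fold lower than at week 9 (limma adjusted p = 0.215 and 0.142). These bounds set the mean of the bright group against a dim group in which each array takes the higher of the gene's own signal and the lowest signal above background there, and they hold on this scale only. With no background correction the log2 difference between week 15 and week 6 was -0.24, and with the authors' processed values it was -0.18.

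Col3a1, the chain of the thin fibres that accompany type I, had log2 signals of 5.66 and 5.94 at week 6, 5.22 and 4.98 at week 9, and 5.86 and 5.19 at week 15. Both week 9 arrays were below both week 6 arrays, and the week 15 arrays reached into the range of each. The log2 difference was -0.70 between week 9 and week 6 and 0.42 between week 15 and week 9 (limma adjusted p = 0.267 and 0.343), the latter 0.089 without the first week 15 array. From week 6 to week 15 it was -0.28, and 0.06 without the second week 15 array.

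Col5a1, a chain of the type V collagen that starts fibrils and limits their width, had log2 signals of 7.87 and 7.43 at week 6, 6.48 and 7.01 at week 9, and 7.10 and 5.77 at week 15. Both week 6 arrays were the highest, and the week 15 arrays enclosed both week 9 arrays. The log2 difference from week 6 was -0.90 ± 0.43 at week 9 and -1.21 ± 0.43 at week 15 (SE, limma adjusted p = 0.358 and 0.288). From week 9 to week 15 it was -0.31. Without the second week 15 array, these last 2 differences were -0.54 and 0.36.

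Col5a3 and Col24a1, minor fibrillar chains, stayed between log2 signals of 4.53 and 5.22 and were above background on only some arrays. Among the chains of cartilage, Col2a1, the main collagen of cartilage and the chain used in bovine form to immunize these mice, lay between 4.71 and 5.15 and was above background on 3 arrays. On their brightest probes Col11a1, which forms the core of cartilage fibrils, lay between 4.81 and 5.25, and Col9a1, which coats them, between 4.52 and 5.25, each above background on 2 arrays. Counting their other probes, each was above background on 3. Col9a2, Col9a3, Col10a1 and Col11a2 were above background on none. Of 12 genes fixed as markers of cartilage, 11 had a probe, none was tested, and 10 of these, including Acan and Sox9, were above background on no array.

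Among the remaining chains, Col15a1 and Col18a1 carry parts of the matrix beside basement membranes and share a domain plan. Col15a1 had log2 signals of 6.33 and 5.96 at week 6, 5.63 and 5.39 at week 9, and 4.81 and 5.20 at week 15. The pairs of arrays fell into the order of the weeks without overlap. The log2 difference was -0.64 between week 9 and week 6, -0.51 between week 15 and week 9, and -1.15 ± 0.22 (SE) between week 15 and week 6 (limma adjusted p = 0.247, 0.218 and 0.122). Between week 15 and week 9 it was -0.32 without the first week 15 array.

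Col18a1, the source of the fragment endostatin, had log2 signals of 6.90 and 6.11 at week 6, 5.53 and 5.44 at week 9, and 6.40 and 5.44 at week 15. Both week 9 arrays were below both week 6 arrays, while the week 15 arrays spanned the range between them. The log2 difference was -1.01 ± 0.36 between week 9 and week 6 (SE, limma adjusted p = 0.265) and 0.43 between week 15 and week 9 (limma adjusted p = 0.486), which were -0.62 without the first week 6 array and -0.04 without the first week 15 array. Only 1 of its 3 probes was above background.

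Col23a1, a transmembrane collagen that cells hold at their surface, had its highest signals at week 9. It had log2 signals of 7.74 and 7.74 at week 6, 7.99 and 8.02 at week 9, and 7.51 and 6.84 at week 15. Both week 9 arrays were the highest and both week 15 arrays the lowest. The log2 difference was 0.27 between week 9 and week 6 (limma adjusted p = 0.606) and -0.83 ± 0.23 (SE, limma adjusted p = 0.116) between week 15 and week 9, the smallest adjusted p of a chain gene in that comparison. Without the second week 15 array the latter was -0.50.

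Col16a1, a fibril-associated chain, lay at 7.26 and 7.01 at week 6, above all later arrays, which ranged from 6.19 to 6.77 on the log2 scale. Col7a1, the anchoring fibril collagen beneath epithelia, ranged from 4.43 to 5.85 with overlap between all weeks. Col17a1, a collagen of epithelial anchoring junctions, ranged from 5.02 to 6.18 on its brightest probe, and its 3 tested probes gave log2 differences of -0.33 to 0.11 between week 9 and week 6 and -0.88 to -0.27 between week 15 and week 6. For Col11a1 the 2 tested probes also disagreed, with 0.01 and 0.76 between week 15 and week 6. The second of these probes was above background on both week 15 arrays, at 5.21 and 5.49, and on no other array. In a limma fit with every probe a feature, its unadjusted p was 0.0064 against week 6 and 0.0352 against week 9. The adjusted p-values in that limma fit were 0.225 and 0.176. For the Col17a1 probe at -0.88, the unadjusted p in the same limma fit was 0.00266 against week 6 and 0.0254 against week 9. Its limma adjusted p-values were 0.18 and 0.152.

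**Figure D2:**
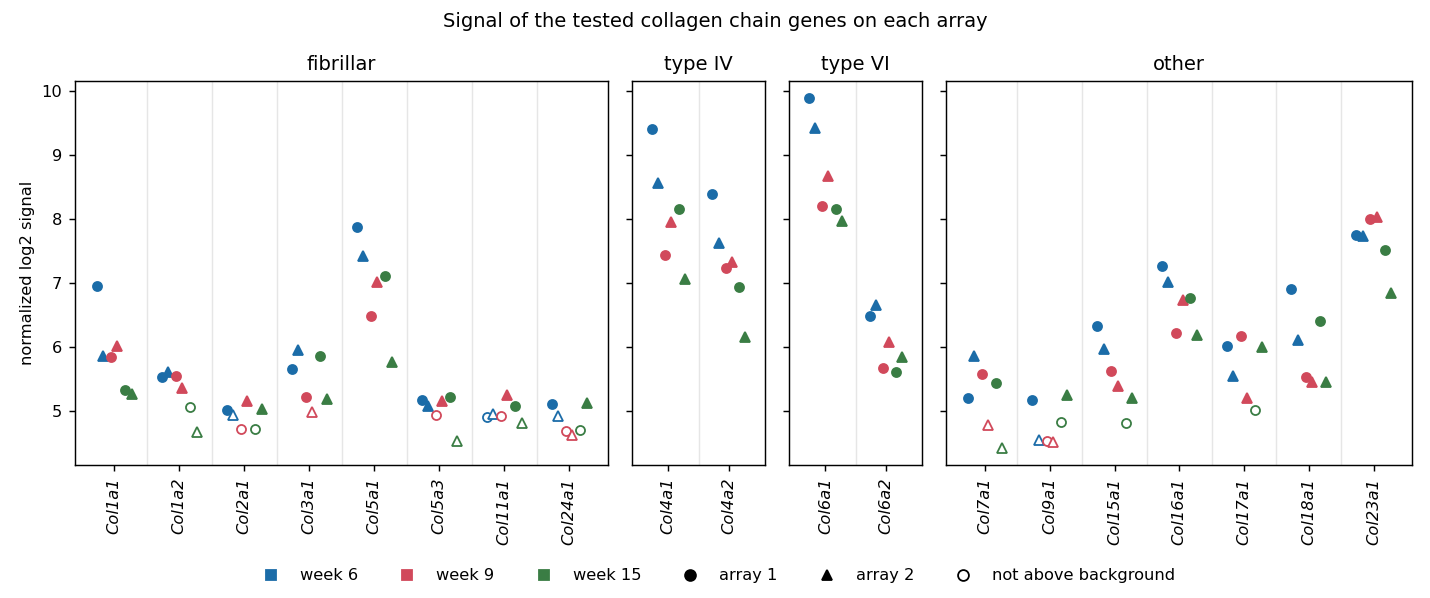
Normalized log2 signal (y axis) of the 19 tested collagen chain genes (x axis, by class) on each of the 6 arrays, with colour for the week, shape for the array and open marks for signals not above background. The blue week 6 marks of Col4a1, Col4a2, Col6a1 and Col6a2 lie above all marks of later weeks, whereas those of Col1a2 overlap week 9 and those of Col23a1 lie below it.

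The comparison of the peak with induction gave 11 of the 19 tested chain genes with both week 9 arrays below both week 6 arrays, where 25.6% of all 10167 features had this. At an unadjusted p under 0.05, 7 were lower, against 8.59% of features, and none was higher. After adjustment 0 passed, against 0.354% of features in either direction (limma). The 7 were Col6a1, Col6a2, Col4a1, Col15a1, Col18a1, Col3a1 and Col16a1. Leaving out 1 array gave 3 when it was the first of week 6, 2 and 4 when it was the first or second of week 9, and 10 when it was either of week 15.

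In the comparison of resolution with the peak, 6 tested chain genes had both week 15 arrays below both week 9 arrays, against 32.2% of features. Col23a1 and Col1a2 were the 2 lower at an unadjusted p under 0.05, against 12.9% of features, and none was higher on its brightest probe. After adjustment 0 passed, against 1.19% of features (limma). Leaving out 1 array gave 1 lower gene when it was the first of week 9, 4 when it was either of week 6, and 5 when it was the first of week 15. The shares of chain genes with all 6 arrays lay near or below those of all features.

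Between resolution and induction, 10 tested chain genes had both week 15 arrays below both week 6 arrays, against 24.3% of features. At an unadjusted p under 0.05, 10 were lower, against 8.52% of features, and none was higher on its brightest probe. After adjustment 0 passed, against 0.0492% of features (limma). The number at an unadjusted p under 0.05 came to 5 when the first array of week 6 or the second of week 15 was left out, and was 14 when the first of week 15 was. The genes had to be above background somewhere to be tested, so their counts describe the tested genes and not the 37.

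The week 15 arrays differed from each other more than those of other weeks. The SD of the log2 differences within the pair was 0.510 over features, against 0.299 at week 6 and 0.303 at week 9, and the second week 15 array was dimmer, with a median intensity of 99.07 against 123.1 to 129.5 on the other 5. Skeletal muscle markers summed to 15799.5 (normalized signal, linear scale) on the first array of week 15, against 490.2 to 668.8 on the other 5. Without that array, 6 chain genes passed the threshold between week 15 and week 6, Col1a2, Col4a1, Col4a2, Col5a1, Col6a1 and Col23a1, all lower at week 15, but so did 9.96% of all features. Col1a2 and Col23a1 also passed between week 15 and week 9, as did 19.7% of features. In these fits the lone week 15 array is assumed to vary like the others. The part of muscle tissue in the chain genes' values was not tested.

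By class, the median log2 difference of the tested genes between week 9 and week 6 was -0.24 for the 8 fibrillar chains, -1.01 for the 2 type IV chains, -0.95 for the 2 type VI chains and -0.35 for the 7 others. Over all features it was 0.04. Between week 15 and week 9 the medians were -0.16, -0.41, -0.26 and -0.18 in the same order, against -0.08 over all features, but with arrays scaled to their 75th percentile those of the fibrillar and other chains were 0.19 and 0.11. Without the second week 15 array, the fibrillar, type IV and other medians of that comparison were 0.02, 0.06 and 0.27, and without the first week 9 array that of the others was 0.15. For week 15 against week 6 the medians were -0.27, -1.42, -1.22 and -0.58, against -0.02. The type IV and type VI medians rest on 2 genes each, and the order of the classes depends on the filter, as follows.

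The filter bears on these medians. Over the 37 genes with no filter they were closer to 0, at -0.11 between week 9 and week 6, -0.08 between week 15 and week 9, and -0.16 between week 15 and week 6. The genes that this adds were above background on at most 1 array. Over the 9 genes above background on all 6 arrays they were -0.73, -0.31 and -1.10, with 8, 7 and 9 of the 9 negative. Of all features tested, 44.9%, 57.6% and 53.1% were negative in these comparisons. The 2 fibrillar chains among the 9 genes, Col1a1 and Col5a1, had medians of -0.69, -0.47 and -1.16. The 3 other chains, Col16a1, Col18a1 and Col23a1, had -0.66, 0.0012 and -0.58. Whether classes differed from each other was not tested. The size of the differences also depends on the processing as a whole. With the authors' processed values, whose normalization is not given, those between week 15 and week 6 were -1.18 for Col6a1, -0.88 for Col4a1, -0.70 for Col4a2 and -0.51 for Col5a1. All were of the same sign as above.

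**Figure D3:**
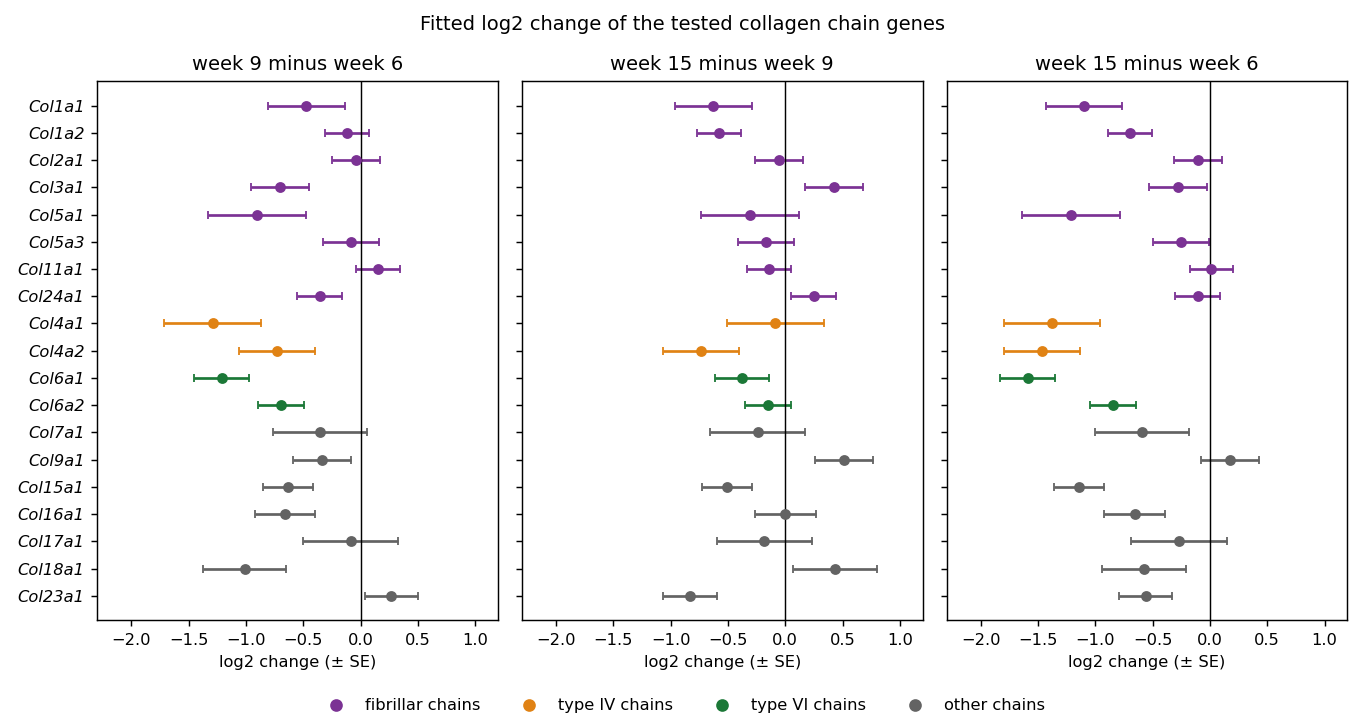
Fitted log2 difference (x axis, with SE bars from limma) of the 19 tested collagen chain genes (y axis, coloured by class) between the weeks, 1 panel per comparison. The chains of types IV and VI lie between -1.29 and -0.70 in the first panel and between -1.59 and -0.85 in the third. In the middle panel 14 of the 19 marks are negative, with a range from -0.83 to 0.51, against 57.6% of all features.

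The genes that make, trim, bind and degrade collagen were taken as 7 lists, and none of their tested members passed the adjusted threshold in any comparison (limma). Among 15 genes that modify chains inside the cell, 10 were tested, with median log2 differences of -0.14 between week 9 and week 6 and -0.21 between week 15 and week 6. P4ha1, a prolyl hydroxylase subunit, was above background on both week 6 arrays, on neither week 9 array and on the first week 15 array alone. By the bounds used for Col1a2, its signal at week 9 was at least 1.166-fold below week 6. No bound is given against week 15, whose second array was not above background. The fitted log2 differences were -0.73 between week 9 and week 6 and 0.69 between week 15 and week 9 (limma adjusted p = 0.312 and 0.236). Both rest in part on signals at background. Among 10 folding and export genes, 5 were tested, with medians of -0.50 between week 9 and week 6 and -0.16 between week 15 and week 6. Sec23a of this list was at -0.50 between week 9 and week 6 and 0.79 between week 15 and week 9 (limma adjusted p = 0.296 and 0.102). Serpinh1, the collagen chaperone, was above background on no array.

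For removal of propeptides and crosslinking, 5 of 14 genes were tested, with medians of -0.73 between week 9 and week 6 and -0.77 between week 15 and week 6. Pcolce, which enhances the cutting of the C-terminal propeptide, had log2 signals of 7.19 and 6.91 at week 6, 6.59 and 6.67 at week 9, and 5.95 and 5.57 at week 15. Its pairs of arrays followed the order of the weeks without overlap, and the log2 difference of week 15 from week 6 was -1.29 (limma adjusted p = 0.0861). Loxl1, a crosslinking enzyme, was at -1.44 between week 9 and week 6 (limma adjusted p = 0.19). Pcolce2 went the other way, at 0.45 between week 9 and week 6 and -0.49 between week 15 and week 9 (limma adjusted p = 0.295 and 0.174). Its brightest probe was above background on the week 9 arrays alone.

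Of 12 genes for proteins that bind fibrils, 8 were tested. The log2 differences of these 8 were negative between week 9 and week 6, with a median of -0.71, against 44.9% of all features negative. Sparc, a collagen-binding matrix protein, was at -1.32 and Dcn, the proteoglycan decorin, at -0.99 (limma adjusted p = 0.101 and 0.124). Of 12 partners of type IV collagen in basement membranes, 6 were tested, with medians of -0.40 between week 9 and week 6 and -0.79 between week 15 and week 6. Nid1, which links laminin to type IV collagen, was at -1.03 between week 15 and week 6 (limma adjusted p = 0.111), and Hspg2, perlecan, at -1.26 between week 9 and week 6 (limma adjusted p = 0.307).

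Of 11 collagen receptors, 3 were tested, with medians of 0.28 between week 9 and week 6 and 0.04 between week 15 and week 6. Ddr1 and Mrc2 were at 0.30 and 0.28 between week 9 and week 6 (limma adjusted p = 0.619 and 0.564). Itgb1, the integrin subunit shared by the collagen-binding integrins, had log2 signals of 7.03 and 7.16 at week 6, 6.55 and 6.18 at week 9, and 7.41 and 7.11 at week 15. Its week 9 arrays were below the other 4, with log2 differences of -0.73 and then 0.90 (limma adjusted p = 0.189 and 0.0869). Of 13 genes for proteins that degrade collagen or, as Timp1, Timp2 and Timp3 do, inhibit such enzymes, 11 were tested, with medians of -0.68 between week 9 and week 6 and -0.66 between week 15 and week 6. The inhibitors Timp1, Timp2 and Timp3 were at -1.27, -0.64 and -1.32 between week 9 and week 6 (limma adjusted p = 0.243, 0.237 and 0.213). The week 6 arrays of Timp1 lay far apart, at log2 signals of 8.26 and 6.80, against 6.32 and 6.19 at week 9. Mmp2, a gelatinase, had log2 signals of 8.85 and 8.60 at week 6, 7.86 and 8.22 at week 9, and 7.48 and 7.21 at week 15, which again follow the order of the weeks. Its log2 difference of -1.38 between week 15 and week 6 had a limma adjusted p of 0.0809. Ctsb had the smallest p of this list between week 9 and week 6, with a log2 difference of -0.89 (limma adjusted p = 0.0877). From week 9 to week 15 its log2 difference was 0.56 (limma adjusted p = 0.121).

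Marker genes of cell types that make collagen, and of others, are given here beside the chain genes. The arrays hold RNA of whole tissue, in which fewer cells of a type and less RNA per cell cannot be told apart. Between week 9 and week 6, the tested genes of the endothelium list had a median log2 difference of -1.04 (9 of 10 tested), those of the smooth muscle and pericyte list -0.80 (7 of 10), those of the fibroblast list -0.41 (6 of 10) and those of the adipocyte list -1.56 (6 of 10). Adipoq and Cidea, both fat cell genes, passed the threshold in that comparison and were lower at week 9. T cell genes stood at 0.29 (7 of 10) and B cell and plasma cell genes at -0.17 (9 of 10). At week 15 the medians relative to week 6 were -1.17 for endothelium, -0.71 for smooth muscle and pericyte, -0.75 for fibroblast, -1.69 for adipocyte, 0.26 for T cell and 0.13 for B cell and plasma cell genes.

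The summed normalized signal (linear scale) of the endothelium list was 4533 and 2634 on the week 6 arrays, 1809.7 and 1977 on the week 9 arrays, and 2235 and 1995 on the week 15 arrays. From 20.9% to 68.9% of that sum was Pecam1. A sum of the list without Pecam1 was added after seeing the data. It came to 3585 and 1980 at week 6, 1017 and 1067 at week 9, and 1542 and 620 at week 15. The first week 6 array was the highest in both endothelium sums. It was also the highest for Col4a1, Col4a2, Col1a1, Col18a1, Col6a1, Col5a1, Col15a1 and Col16a1, and for the fibroblast and the smooth muscle and pericyte sums below. For Col6a2, Col1a2, Col3a1 and Col23a1 another array was the highest. The fibroblast list summed to 12845 and 10527 at week 6, 10141 and 9018 at week 9, and 9554 and 9962 at week 15, and its markers Dpt, Fap and Twist2 were above background on no array. From 37.6% to 67.7% of that sum was Thy1, which T cells also carry and whose log2 difference between week 9 and week 6 was 0.36, while those of the other 5 tested fibroblast markers were negative. In a sum added after seeing the data, the list without Thy1 came to 8009 and 6171 at week 6, 3277 and 3928 at week 9, and 4279 and 3459.7 at week 15. Most of this sum was Dcn, a gene also in the list of proteins that bind fibrils. Dcn had log2 signals of 12.82 and 12.44 at week 6, 11.51 and 11.77 at week 9, and 11.92 and 11.62 at week 15. Smooth muscle and pericyte genes summed to 2181 and 1528, 1029 and 1096, and 1602 and 790.3. Adipocyte genes summed to 834.9 and 1024, 295.8 and 302.8, and 423.9 and 309.8. The part of these cells in the chain genes' values was not tested.

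Marker lists were also taken for tissues that a dissection can carry along. Of the tendon list 2 of 6 genes were tested, with a summed normalized signal between 149 and 171, and Scx, Mkx and Kera were above background on no array. Of 10 bone genes 2 were tested, with sums between 274.0 and 319 with Bglap, Dmp1 and Sp7 above background on none, and with Alpl above it on all 6 at log2 signals of 6.21 to 6.80. Of 10 skin epithelium genes 3 were tested, with sums between 472 and 601.0 with Krt5, Krt14, Lor and Dsg3 above background on none, and with Krt10 above it on all 6 at log2 signals of 8.12 to 8.69. The cartilage list, with 10 of its 11 genes above background on no array, summed to between 256.0 and 283. The sums of these lists include signals at background and are not amounts of RNA.

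**Figure D4:**
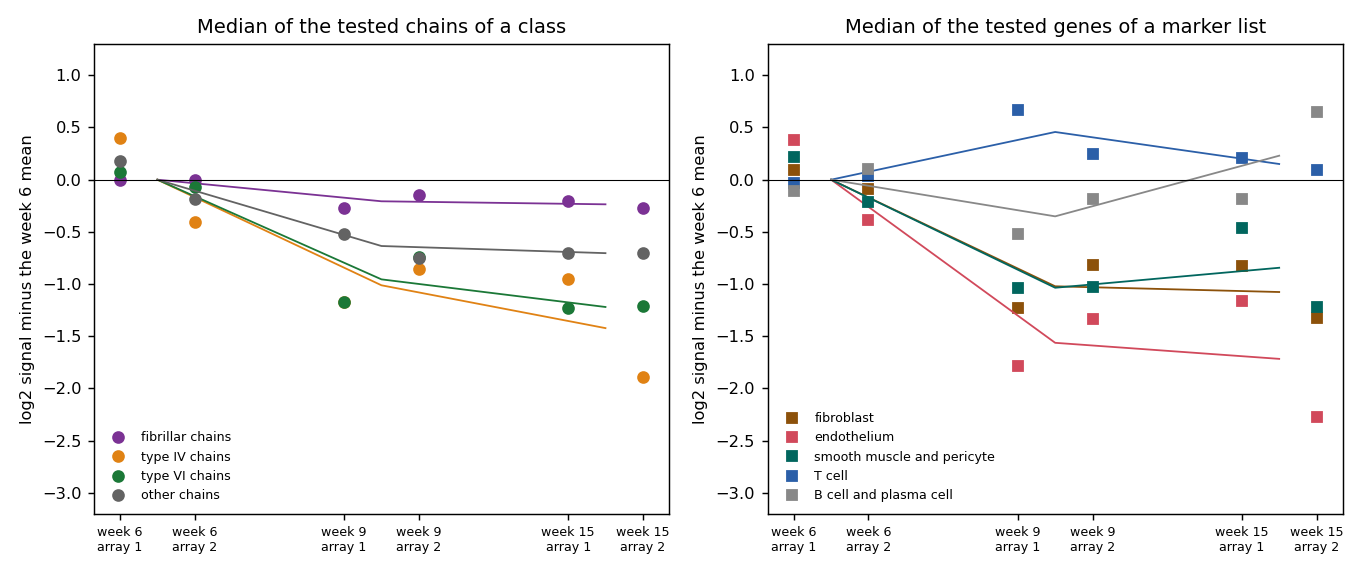
Median log2 signal of the tested collagen chains of each class (left) and of the tested genes of 5 cell type marker lists (right) on each array, minus the mean of the list's week 6 arrays; thin lines join the means of the weeks. All 4 classes of chains and the endothelium, fibroblast and smooth muscle lists lie below 0 on all 4 later arrays, and the T cell list lies above 0 on them.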

How the data were processed

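Each probe has 1 deposited intensity per array, on a linear scale, with no sign of background subtraction in the values. The authors' processed log2 values were an alternative only: the sources used here do not give their normalization. Their columns matched the arrays with r across probes of at least 0.9958 for the right array and at most 0.9922 for a wrong one. A further 2 per-sample columns of the signal table match no sample and were left out.

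Of 26821 rows, 1124 carry no probe ID. The 13 of these that stood over 5 median absolute deviations above the median were dropped, and 1111 rows stood for the background. Intensities were corrected with the normal-exponential model from these rows (offset 16), quantile-normalized and log2-transformed (neqc, limma 3.58.1, R 4.3.3). Detection p is the fraction of background rows as bright as a probe or brighter, and the 13633 probes under 0.05 on at least 2 of 6 arrays were tested. The probe with the highest mean stood for its gene, which gave 10167 features, 9360 of them with a symbol. Between 47.88% and 50.73% of probes were above background on an array. The array number limits the precision.

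One linear model with a mean per week was fitted to the 6 arrays (lmFit, eBayes; 3 residual and 4.02 prior degrees of freedom). Tests are two-sided, with Benjamini-Hochberg adjustment over all features at a threshold of 0.05. The collagen genes, their 4 classes, the 7 pathway lists and the 11 marker lists were chosen with earlier results of these data known. The marker lists share Dcn, Lum, Dpt, Fap, Fmod and Comp with the pathway lists. Genes shown with their array values were the tested chains of types I, III, V, IV, VI, XV and XVIII, except Col5a3. So were the 3 chain genes with the smallest unadjusted p of each comparison and any past the threshold. Types XII and XIV also fell under the rule, but Col12a1 has no probe here and Col14a1 and Col5a2 were not above background. Col5a3 and the cartilage chains are given by range or detection. Of each pathway list, up to 2 genes with the smallest p of a comparison were picked out. Only some of these are named, and some of those without array values. Serpinh1, Timp1, Timp2 and Timp3 are named beside them. Comp, Acan, Sox9 and the other marker genes named belong to the marker lists. Tried as alternatives were the background correction, scaling, the authors' values, the detection filter, the choice of probe, a replicate block, only the arrays compared, and leaving out each array.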

Additional observations from a re-analysis of the deposited data

How the results depend on the processing

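The 3 counts of chain genes past the threshold were 0 under every alternative except the following. Between week 15 and week 6, 1 gene, Col6a1, passed with no background correction and with an offset of 50, where 29 and 44 features passed in all. Leaving out single arrays gave 0 to 6 genes between week 15 and week 6 and 0 to 2 between week 15 and week 9, the highest in each case without the first week 15 array. The labels' replicate numbers did not pair the arrays: the correlations of the log2 differences within weeks were -0.04, 0.15 and -0.08. With a replicate block the count of chain genes was 0 in each comparison, and 8, 34 and 4 features passed in all, against 36, 121 and 5 without it.

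The class medians moved by more than their spread between arrays under several settings. For fibrillar chains between week 9 and week 6 the median was -0.089 with no background correction, -0.11 with an offset of 50, -0.35 with 75th percentile scaling, -0.071 with the authors' values, -0.12 with no filter and with every probe a feature, and -0.69 over genes above background on all arrays. For week 15 against week 9 it was -0.066 with no background correction, -0.071 with an offset of 50, 0.19 with 75th percentile scaling, -0.055 with the authors' values, -0.091 with no filter, and -0.47 over genes above background on all arrays. For week 15 against week 6 it was -0.10, -0.14, -0.075 and -0.08 with no background correction, an offset of 50, 75th percentile scaling and the authors' values, and -1.16 over genes above background on all arrays. For type IV chains it was -0.14 with no filter between week 9 and week 6, -0.10 with no filter and -0.79 with the authors' values between week 15 and week 6. For type VI chains between week 9 and week 6 it was -0.67 with no background correction, -0.58 with the authors' values, -0.70 with no filter and -1.21 with every probe a feature, and between week 15 and week 6 it was -0.85, -0.72, -0.85 and -1.54 in that order and -1.02 with an offset of 50. For the other chains between week 9 and week 6 it was -0.14 with no background correction, -0.12 with the authors' values, -0.053 with no filter and -0.66 over genes above background on all arrays. For week 15 against week 9 it was 0.11 with 75th percentile scaling and 0.0012 over genes above background on all arrays. For week 15 against week 6 it was -0.26, -0.39, -0.20 and -0.16 with no background correction, an offset of 50, the authors' values and no filter. The differences without a filter come with genes at background, and those without a correction with values pulled towards the background level.

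Leaving out single arrays gave fibrillar medians from -0.30 to -0.10, -0.39 to 0.017 and -0.60 to -0.25 for week 9 against 6, 15 against 9 and 15 against 6. Type IV medians ran from -1.41 to -0.61, -0.88 to 0.058 and -1.89 to -0.95, type VI medians from -1.17 to -0.74, -0.48 to -0.046 and -1.29 to -1.15, and those of other chains from -0.65 to -0.33, -0.63 to 0.27 and -0.95 to -0.23. Single genes changed sign as follows. Col6a2 between week 15 and week 9 was 0.059 with 75th percentile scaling and ran from -0.35 to 0.049 when arrays were left out. Col1a1 between week 9 and week 6 ran from -1.02 to 0.075. Between week 15 and week 9, Col5a1 ran from -0.98 to 0.36, Col4a1 from -0.63 to 0.46 and Col18a1 from -0.045 to 0.91. Col3a1 between week 15 and week 6 ran from -0.62 to 0.058. The causes were not tested. Signals near background, such as those of Col1a2, depend most on the correction, with a log2 difference between week 15 and week 6 of -0.70 with it and -0.24 without. With 2 arrays per week, every comparison is of limited precision.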
